A study of Mus musculus with 12 samples.

Results

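The genes described here are 10 markers of the leptomeninges and of fibrillar matrix, measured in the cerebellum of mice with and without Ciz1. They are Col1a1, Col1a2, Col3a1, Dcn, Lum, Igf2, Ptgds, Slc6a13, Slc22a6 and Mgp, chosen by name as known markers. Each was found as a row of the deposited array table with a single gene symbol, and all 10 were present among 22180 genes so identified. No row was removed for low brightness. Values are log2 intensities of Affymetrix whole-transcript arrays, so a difference of 1 is a doubling of intensity.

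Total RNA came from whole cerebellum of 12 adult mice, with 1 array for each mouse and 3 mice in each of 4 groups. KO_female and KO_male mice carried Ciz1-/- and are described as a germline deficiency. WT_female and WT_male mice were age- and sex-matched controls, which the source names and the extraction protocol give as wild type while the genotype field reads Ciz1+/-. Ages are given as 10 months in one label and as 6 to 10 months in another, and no drug or other treatment is named. How the Ciz1 allele was made is not given in the sources used here, and replicate numbers only name an array. The Ciz1 row lay between 6.82 and 7.31 in the 6 KO arrays, against 8.70 to 8.90 in the 6 WT arrays (difference -1.64, limma adjusted p = 1.42e-06). Every array thus fell on the KO or control side that its label gives. Whether the controls were wild type or Ciz1+/- cannot be told from these values. The KO_female arrays had scores of 10.72 to 16.01 on the first principal component of all genes, and the 9 remaining arrays had -12.18 to 3.54. The cerebellar neuron markers were present, with mean levels of 11.70 to 12.34 for 3 Purkinje cell genes and 8.76 to 12.25 for 6 granule cell genes.

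The leptomeninges are the thin membranes, pia and arachnoid, that wrap the brain and follow the folds of the cerebellum. Their fibroblasts lay down collagen fibres and small leucine-rich proteoglycans that bind those fibres. They also form part of the barrier between blood and cerebrospinal fluid, secrete proteins into that fluid and carry transporters that move small molecules out of it. In RNA from whole tissue, fewer fibroblasts and less RNA in each fibroblast cannot be told apart.

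Promoter sequences are shown for all members with a single start in the RefSeq promoter table, Col1a2, Col3a1, Ptgds and Slc22a6. They were not chosen by how the genes varied, and no link of sequence to variation was tested. Of the 10 members 6 were matched in that table, 4 of them with a single start. Each line gives the 250 bases before the start of transcription in RefSeq build GRCm38.p6, 5′ to 3′ on the gene's own strand. Capitals mark matches, on either strand, to CCAAT, the core bound by NF-Y, and to GGGCGG, the GC box bound by Sp1. They also mark TATAAA, the letters of a TATA box, and TAAACA, a core bound by forkhead factors. The matches are of letters at any position in the stretch, and whether any of them is a working site was not tested.
Col1a2, chr6:4505368-4505617, plus strand: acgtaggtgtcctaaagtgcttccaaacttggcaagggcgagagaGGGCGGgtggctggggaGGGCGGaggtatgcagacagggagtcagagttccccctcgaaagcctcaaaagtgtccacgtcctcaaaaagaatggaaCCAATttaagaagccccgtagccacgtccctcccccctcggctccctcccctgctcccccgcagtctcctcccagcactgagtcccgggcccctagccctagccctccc
Col3a1, chr1:45311288-45311537, plus strand: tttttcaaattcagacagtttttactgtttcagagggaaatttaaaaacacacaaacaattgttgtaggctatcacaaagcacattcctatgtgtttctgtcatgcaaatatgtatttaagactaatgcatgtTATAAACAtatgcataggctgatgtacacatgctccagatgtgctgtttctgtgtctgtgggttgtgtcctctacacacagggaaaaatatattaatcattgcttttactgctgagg
Ptgds, chr2:25469750-25469999, minus strand: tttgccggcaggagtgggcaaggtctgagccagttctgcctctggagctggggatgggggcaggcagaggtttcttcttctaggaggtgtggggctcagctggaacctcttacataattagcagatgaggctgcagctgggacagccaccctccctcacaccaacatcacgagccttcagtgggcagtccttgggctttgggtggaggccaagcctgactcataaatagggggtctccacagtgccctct
Slc22a6, chr19:8617746-8617995, plus strand: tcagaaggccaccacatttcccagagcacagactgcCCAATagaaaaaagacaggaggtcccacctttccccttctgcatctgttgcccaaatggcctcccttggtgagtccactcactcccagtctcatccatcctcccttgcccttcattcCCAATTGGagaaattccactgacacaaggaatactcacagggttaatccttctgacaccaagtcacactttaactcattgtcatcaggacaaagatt

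The Col1a2 stretch held CCAAT at 109 to 105 bases before the start and GGGCGG at 205 to 200 and at 188 to 183. The Col3a1 stretch held TATAAA at 117 to 112 and TAAACA at 115 to 110, and these overlap. The Slc22a6 stretch held CCAAT at 214 to 210, at 97 to 93 and, on the opposite strand and overlapping the last, at 94 to 90. None of these letter runs was found in the Ptgds stretch. Of all 32851 promoters listed by RefSeq, a share of 33.9% held CCAAT, 32.7% GGGCGG, 12.4% TATAAA and 12.03% TAAACA in the same 250 bases.

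No difference between KO and WT cerebellum passed the test for any of the 10 genes. Across both sexes 0 of 10 passed the limma test with Benjamini-Hochberg adjustment over all genes, where 0.0225% of all genes did. At an unadjusted p under 0.05 the count was also 0 of 10, against 9.26% of all genes. In no member did the 6 KO arrays lie apart from the 6 WT arrays, which 0.55% of all genes did. The differences ran from -0.11 for Col3a1 to 0.24 for Mgp, 6 positive and 4 negative, with a median of 0.02 against -0.0007 over all genes. What Mgp, Dcn, Igf2 and Slc6a13 did show was a large variation from mouse to mouse. Lum also varied widely against all genes, but it was a dim row. KO_male replicate 2 or KO_female replicate 2 was the highest array for 8 of the 10 genes, against 16.7% of all genes. These arrays were picked after the values were seen.

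**Figure D1:**
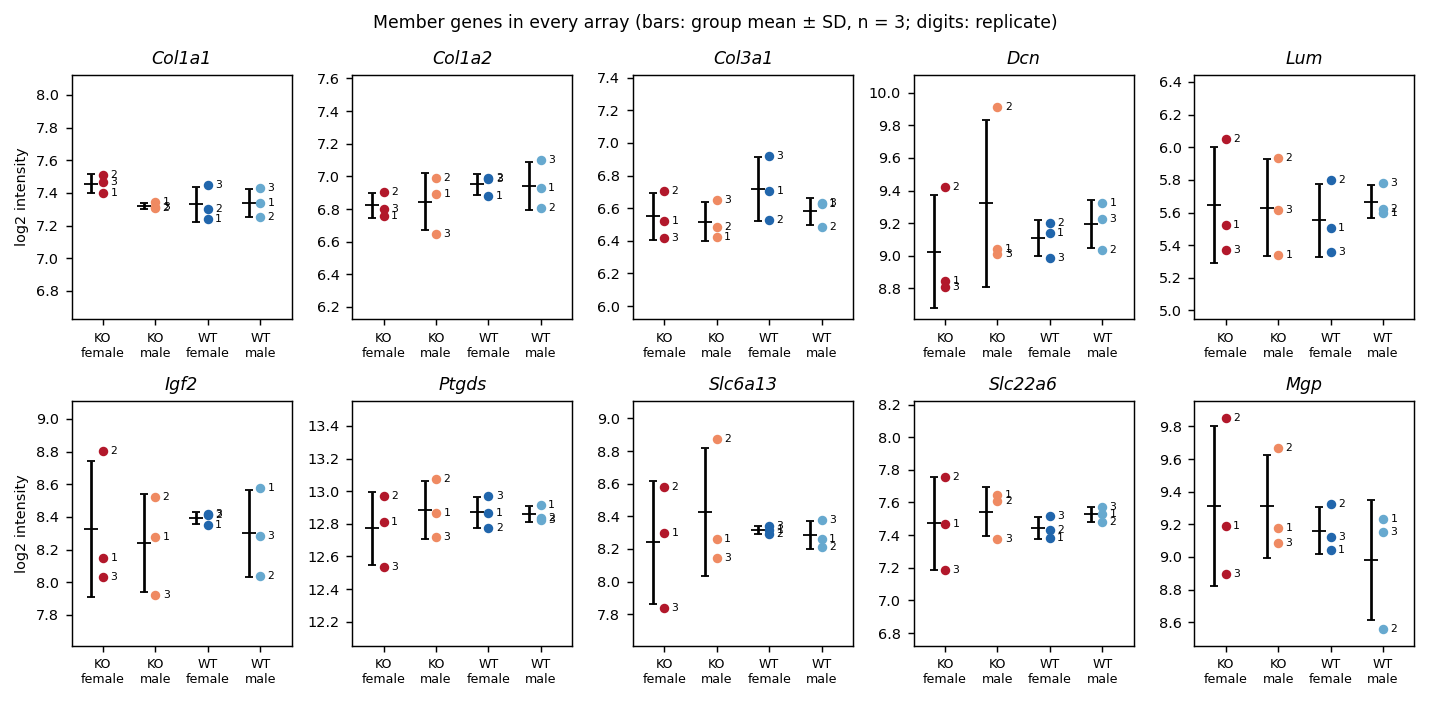
Log2 intensity (vertical axis, the same span in every panel) of the 10 genes in each of the 12 arrays, by group. Points are arrays with their replicate number, and bars are the group mean ± SD (n = 3). KO_male replicate 2 and KO_female replicate 2 are the highest points for Dcn, at 9.91 and 9.42, and for Slc6a13, at 8.88 and 8.58, while Col1a1 stays between 7.24 and 7.51.

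Col1a1 and Col1a2 encode the chains of type I collagen, the main fibre protein of connective tissue, and Col3a1 encodes type III collagen, which is found with it in soft tissue. Col1a1 was 7.40, 7.51 and 7.47 in the KO_female arrays and 7.34, 7.31 and 7.31 in the KO_male arrays, against 7.24, 7.30 and 7.45 in WT_female and 7.34, 7.26 and 7.43 in WT_male. The groups overlapped, and the highest arrays were KO_female replicates 2 and 3. The difference between KO and WT was 0.05 (SE 0.05; limma adjusted p = 0.760). Col1a1 varied little, with an SD within groups of 0.07, wider than in 21.3% of all genes.

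Col1a2 averaged 6.83 ± 0.12 in KO arrays and 6.95 ± 0.10 in WT arrays (SD, n = 6 each), a difference of -0.11 (SE 0.07; adjusted p = 0.632). Averaged with its dim further row the difference was -0.0243, and without single arrays it lay between -0.1508 and -0.0662. Its lowest array was KO_male replicate 3, at 6.65, and its highest was WT_male replicate 3, at 7.10. Col3a1 averaged 6.53 ± 0.12 in KO arrays and 6.65 ± 0.15 in WT arrays, a difference of -0.11 (SE 0.08; adjusted p = 0.666), and -0.1618 to -0.0646 without single arrays. Its highest array was WT_female replicate 3, at 6.92, and the other 11 arrays lay between 6.42 and 6.71. Col1a1 and Col1a2 were not detectably correlated across the 12 arrays (Pearson r = 0.17, permutation p = 0.592; Spearman rho = 0.03, p = 0.919). Without KO_female replicates 2 and 3, the arrays farthest from the median of Col1a1, r was 0.35.

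Dcn and Lum encode decorin and lumican, proteoglycans that bind collagen fibrils and govern their spacing. Dcn was 8.84, 9.42 and 8.81 in KO_female and 9.04, 9.91 and 9.01 in KO_male, against 9.14, 9.20 and 8.99 in WT_female and 9.32, 9.03 and 9.22 in WT_male. The highest arrays, KO_male replicate 2 and KO_female replicate 2, and the lowest, KO_female replicate 3, were all KO. The means were 9.17 ± 0.42 in KO and 9.15 ± 0.12 in WT (SD, n = 6 each; difference 0.02, SE 0.16, adjusted p = 0.982). Lum ranged from 5.34 to 6.05 in KO arrays, with a median of 5.57, and had a median of 5.61 in WT arrays, all of which lay inside that range (difference 0.03, SE 0.13, adjusted p = 0.970). It was a dim row, with a mean brightness above that of 23.3% of genes, and the table gives no detection call.

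Igf2 and Ptgds encode secreted proteins of the meninges. Igf2 is insulin-like growth factor 2, an imprinted growth factor, and Ptgds is the lipocalin-type prostaglandin D synthase, an abundant protein of cerebrospinal fluid that oligodendrocytes and choroid plexus also make. Igf2 was 8.15, 8.80 and 8.03 in KO_female and 8.28, 8.52 and 7.92 in KO_male, against 8.35, 8.41 and 8.41 in WT_female and 8.58, 8.04 and 8.28 in WT_male. The SD was 0.42 in KO_female and 0.30 in KO_male, against 0.04 in WT_female and 0.27 in WT_male, so only the WT_female group was narrow. The difference between KO and WT was -0.06 (SE 0.14; adjusted p = 0.932).

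Ptgds was 12.81, 12.97 and 12.53 in KO_female and 12.86, 13.07 and 12.72 in KO_male, against 12.86, 12.78 and 12.97 in WT_female and 12.91, 12.84 and 12.82 in WT_male. All groups overlapped, and the extremes were KO_male replicate 2 and KO_female replicate 3. The difference was -0.035 (SE 0.08; adjusted p = 0.932). Beside it, all 9 measured oligodendrocyte markers were lower on average in KO arrays, with a median difference of -0.28. All 9 had an unadjusted p under 0.05, against 9.26% of all genes. In females the median was -0.38 with 8 of 9 at that level (8.49% of all genes). In males it was -0.14 with 0 of 9 (5.42% of all genes). Of these Opalin passed the test, at -0.45 (limma adjusted p = 0.037), while Mal, at -0.36 (adjusted p = 0.154), and Cldn11, at -0.28 (adjusted p = 0.267), did not. The call of Opalin was lost with the choroid plexus level as a covariate (adjusted p = 0.0783) and without any of 9 of the 12 arrays (up to 0.158). Opalin differed by -0.72 in females (limma adjusted p = 0.0144) and by -0.19 in males (adjusted p = 0.910), and the difference between the sexes, -0.53, did not pass (adjusted p = 0.772). The call of Opalin in females was lost without WT_female replicate 1 (limma adjusted p = 0.0613), WT_female replicate 2 (0.0567), KO_female replicate 1 (0.0998) or KO_female replicate 3 (0.0751).

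Slc6a13 and Slc22a6 encode transporters of the meningeal barrier. Slc6a13 is GAT2, which carries GABA and taurine, and Slc22a6 is OAT1, an organic anion exchanger best known from the kidney. Slc6a13 was 8.30, 8.58 and 7.84 in KO_female and 8.26, 8.88 and 8.14 in KO_male, against 8.32, 8.29 and 8.34 in WT_female and 8.26, 8.21 and 8.38 in WT_male. The 6 WT arrays lay between 8.21 and 8.38, and 4 of the 6 KO arrays fell outside that band, 2 above it and 2 below. The means were nevertheless close, 8.33 ± 0.36 in KO and 8.30 ± 0.06 in WT (SD, n = 6 each; difference 0.03, SE 0.14, adjusted p = 0.967). Slc22a6 was 7.47, 7.76 and 7.19 in KO_female and 7.65, 7.61 and 7.37 in KO_male, against 7.38, 7.43 and 7.52 in WT_female and 7.53, 7.48 and 7.57 in WT_male. Its WT arrays were again the narrower set, inside the range of the KO arrays (difference 0.02, SE 0.09, adjusted p = 0.964).

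Mgp encodes matrix Gla protein, a vitamin K dependent inhibitor of calcification made by fibroblasts, smooth muscle and cartilage. It was 9.19, 9.85 and 8.89 in KO_female and 9.18, 9.67 and 9.08 in KO_male, against 9.04, 9.32 and 9.12 in WT_female and 9.23, 8.56 and 9.15 in WT_male. KO_female replicate 2 and KO_male replicate 2 stood above all other arrays, and WT_male replicate 2 stood below all others. The difference of 0.24 (SE 0.17; adjusted p = 0.698) had a 95% interval of -0.14 to 0.61. Without the 2 highest arrays together it was 0.02 (SE 0.13). It was 0.13 without WT_male replicate 2, 0.10 without KO_female replicate 2, 0.15 without KO_male replicate 2 and 0.34 without KO_female replicate 3.

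**Figure D2:**
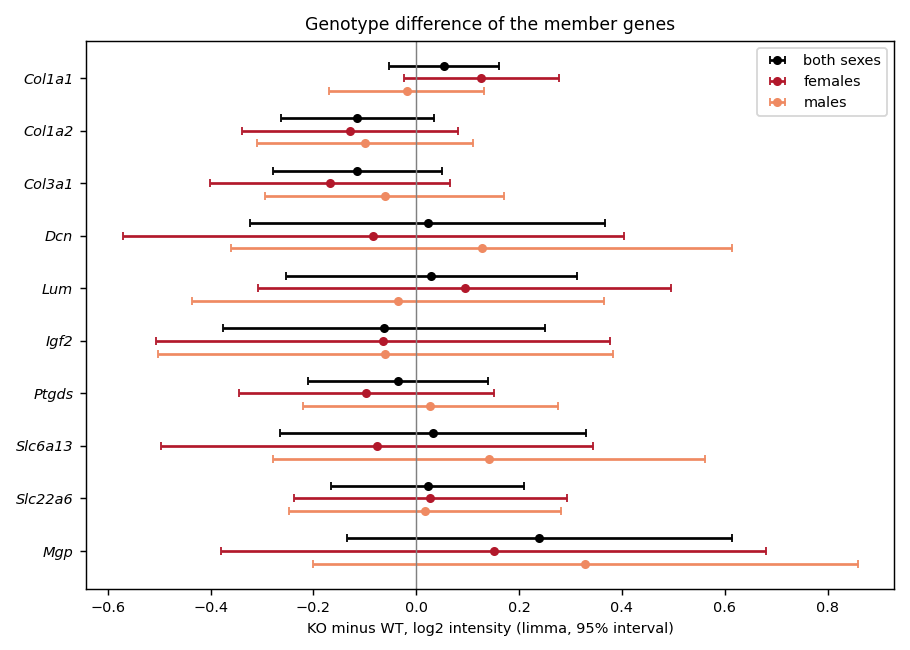
KO minus WT difference in log2 intensity (horizontal axis) for each gene, over both sexes (black), in females (red) and in males (orange). Points are limma estimates and bars are 95% intervals. Every interval includes 0, and the widest belong to Mgp, Dcn and Igf2.

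Each sex was also tested alone. In males 0 of 10 genes passed (0.0225% of all genes, and 5.42% at an unadjusted p under 0.05), with differences from -0.10 for Col1a2 to 0.33 for Mgp. In females 0 of 10 passed (0.0225% of all genes), with differences from -0.17 for Col3a1 to 0.15 for Mgp. Col1a1 differed by 0.13 in females (SE 0.07; adjusted p = 0.651). The genotype difference in females minus that in males ran from -0.22 for Slc6a13 to 0.15 for Col1a1, and 0 of 10 members and 0% of all genes passed that test. Females and males, averaged over genotype, differed by -0.19 for Dcn to 0.09 for Mgp, with 0 of 10 past the threshold against 0.0361% of all genes (7.93% at an unadjusted p under 0.05). At an unadjusted p under 0.05 the count was 0 of 10 in each of these 4 contrasts too, against 4.82% to 8.49% of all genes. Neighbours in the order of the 4 group means were tested only where a contrast above sets them against each other. For Dcn the order ran from 9.03 in KO_female to 9.32 in KO_male, the lowest and the highest means, with SDs of 0.34 and 0.51.

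Against all genes, variation between mice of the same sex and genotype was large for 5 members. The SD within groups was 0.35 for Mgp, 0.32 for Dcn, 0.29 for Igf2, 0.28 for Slc6a13 and 0.26 for Lum, where the median over all genes was 0.11. These 5 values were wider than in 95.1% to 98.6% of all genes. Slc22a6, at 0.17, and Ptgds, at 0.15, lay at the 78.3rd and 73.4th percentiles of all genes, with SDs near that of Col3a1, at 0.14. Among genes above the median brightness, where the median SD was 0.08, they lay at the 95.1st and 93.2nd percentiles. Col1a1 lay at the 38.9th there, and Col1a2, Col3a1 and Lum are not in that set. The 95th percentile of the SD was 0.165 there and 0.26 over all genes. Lum, a dim row, was not compared with genes of like brightness, so its spread cannot be called large for its level. Mgp spanned 2.45-fold from the lowest to the highest array, Dcn 2.15-fold and Slc6a13 2.05-fold, while Col1a1 spanned 1.20-fold. Over all genes, the 3 collagens lay between the 21.3rd and the 68.3rd percentile of spread. The split into 3 collagens and 7 other genes used below was made after the values were seen and is a description.

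The same arrays were high for most of the 7 other genes. KO_male replicate 2 or KO_female replicate 2 was the highest array for all 7, and these arrays were the highest 2 for Dcn, Lum, Ptgds, Slc6a13 and Mgp. Over all genes 16.7% had one of them highest and 1.92% had both on top. KO_female replicate 3 was the lowest array for 4 of the 7, against 11.3% of all genes. Averaged over the 7 genes, KO_male replicate 2 lay 0.38 and KO_female replicate 2 lay 0.35 above the mean of all arrays, and KO_female replicate 3 lay at -0.33. The other 9 arrays lay between -0.17 and 0.07. For the 3 collagens the same 3 arrays were at -0.02, 0.09 and -0.05.

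**Figure D3:**
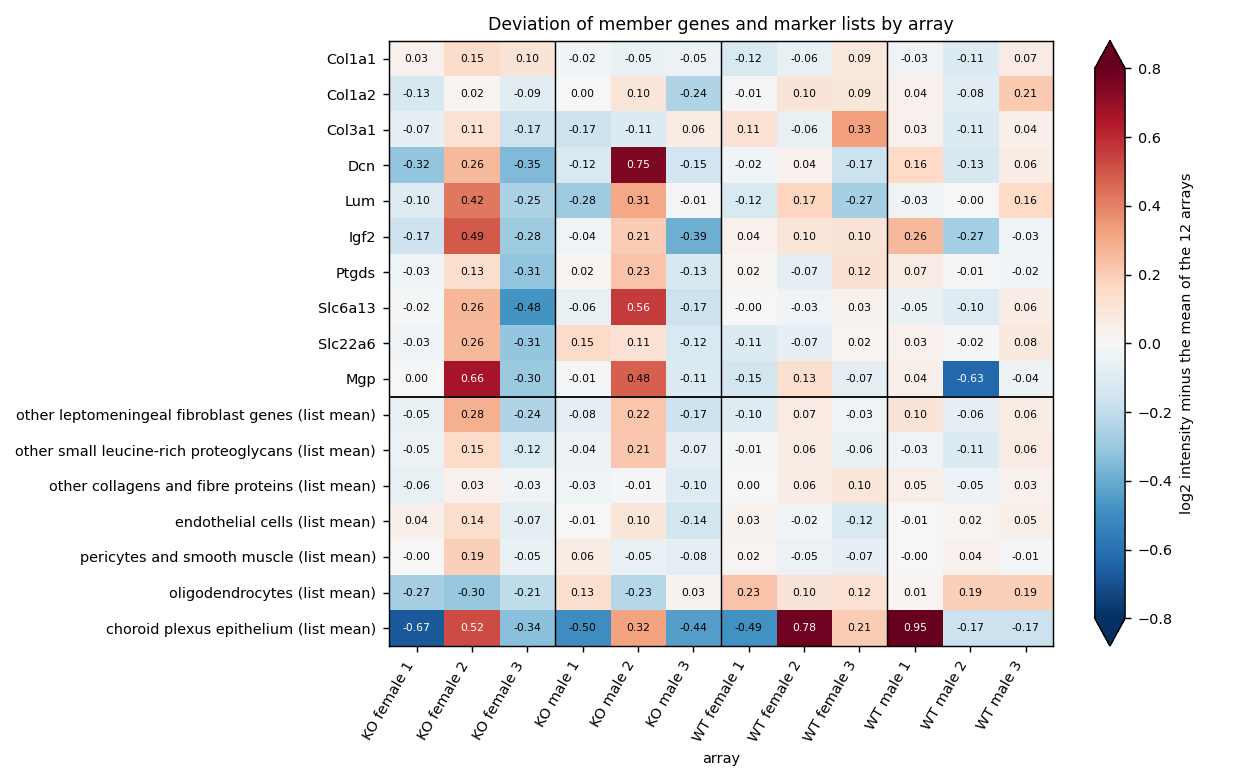
Deviation of log2 intensity from the mean of the 12 arrays (colour and printed value) for the 10 genes, and below the line for the mean of 7 marker or gene lists. Columns are arrays by group, and colour is capped at 0.8 in either direction. KO_female replicate 2 and KO_male replicate 2 are high for Dcn, Slc6a13 and Mgp and for the other leptomeningeal genes, at 0.28 and 0.22, while the choroid plexus list is highest in WT_male replicate 1, at 0.95.

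Of the 45 pairs of members, 15 were correlated across the 12 arrays at an adjusted p under 0.05 (Pearson, permutation test with 100000 resamples, two-sided, adjusted over the 45 pairs). All 15 were among the 21 pairs without a collagen, where r ran from 0.44 to 0.89 with a median of 0.70. The 21 pairs of a collagen with another member had a median r of 0.26, and the 3 pairs of collagens one of 0.22. By Spearman's rho 0 of 45 passed after adjustment, with a median of 0.64 among the 21 pairs without a collagen. Leaving out the 2 arrays farthest from the median of the first gene left 0 pairs past the threshold, with a median r of 0.51 in those 21 pairs. With 10 arrays the test is also weaker, and r changed little in some pairs (Dcn and Igf2, 0.67 with all arrays and 0.69 without) and much in others (Lum and Ptgds, 0.44 and 0.0077). Without KO_female replicate 3 alone the count was also 0, and without any other single array it lay between 4 and 14.

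Ptgds and Slc6a13 were the closest pair (r = 0.89, p = 0.00042, adjusted p = 0.0101; rho = 0.73, p = 0.00964, adjusted p = 0.0723). Without KO_female replicate 3 and KO_male replicate 2 their r was 0.68. Dcn and Slc6a13 came next (r = 0.87, p = 0.00045, adjusted p = 0.0101; rho = 0.64, p = 0.0299, adjusted p = 0.0898), with an r of 0.56 without KO_female replicate 2 and KO_male replicate 2. Ptgds and Slc22a6 had r = 0.81 (p = 0.00251, adjusted p = 0.0282; rho = 0.74, p = 0.008, adjusted p = 0.072), and 0.65 without the farthest arrays, KO_female replicate 3 and KO_male replicate 2. Igf2 and Mgp had r = 0.79 (p = 0.00251, adjusted p = 0.0282; rho = 0.74, p = 0.00784, adjusted p = 0.072), and 0.75 without KO_female replicate 2 and KO_male replicate 3. Col1a1 and Dcn, at the other end, had r = -0.15 (p = 0.669; rho = -0.18, p = 0.577), and -0.22 without KO_female replicates 2 and 3.

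**Figure D4:**
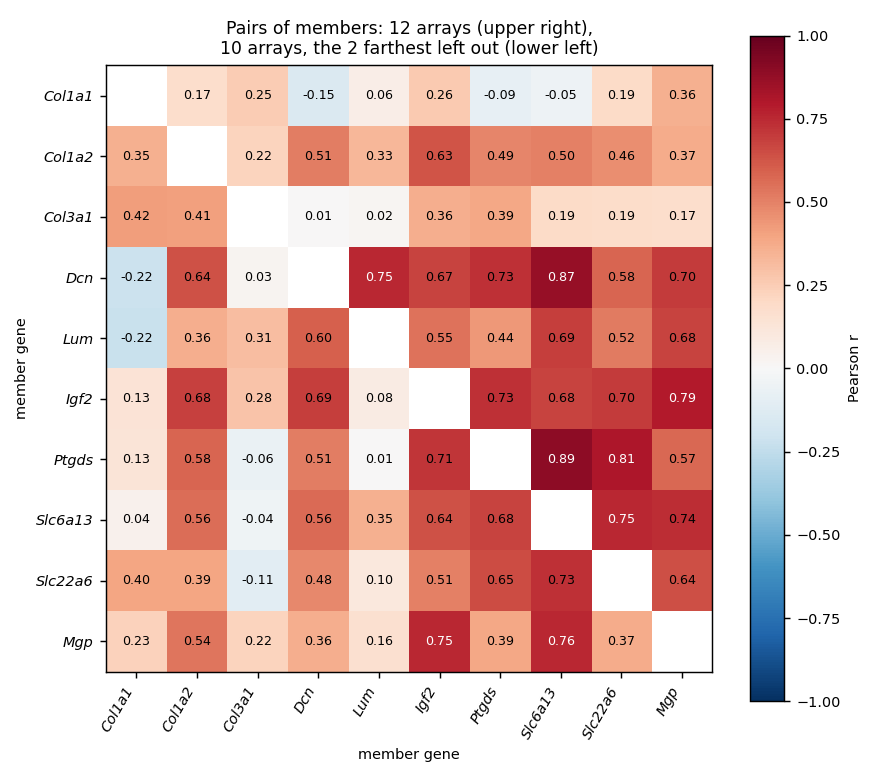
Pearson r of log2 intensity for each pair of the 10 genes, over 12 arrays (upper right) and over the 10 arrays left when the 2 farthest from the median of the first gene of the pair are omitted (lower left). Colour and printed number both give r. The block of Dcn, Lum, Igf2, Ptgds, Slc6a13, Slc22a6 and Mgp holds values from 0.44 to 0.89 in the upper right, and Col1a1 shows 0.36 or less with every other gene there.

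The spread of the 7 genes, a set split off after the values were seen, was wider among the KO arrays than among the WT arrays. Averaged over the 7 genes, KO_male replicate 2 (0.38), KO_female replicate 2 (0.35) and KO_female replicate 3 (-0.33) lay outside the WT range of -0.17 to 0.07. KO_male replicates 1 (-0.05) and 3 (-0.155) and KO_female replicate 1 (-0.09) lay inside it. For Slc6a13 the SD within sex groups was 0.38 in KO arrays and 0.06 in WT arrays, a ratio of 6.11. Slc22a6 had 0.23 in KO and 0.06 in WT, Dcn 0.44 in KO and 0.13 in WT, and Ptgds 0.20 in KO and 0.08 in WT. The SD was larger in KO arrays for 8 of 10 members, against 51.6% of all genes, with Col1a1 and Col3a1 the exceptions, and over 2 times larger for 4 of 10, against 12.3% of all genes. Among 35 other leptomeningeal genes it was larger in KO arrays for 29 and over 2 times larger for 21. The genes share the same arrays, so these counts are not independent, and the difference in spread was not tested.

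**Figure D5:**
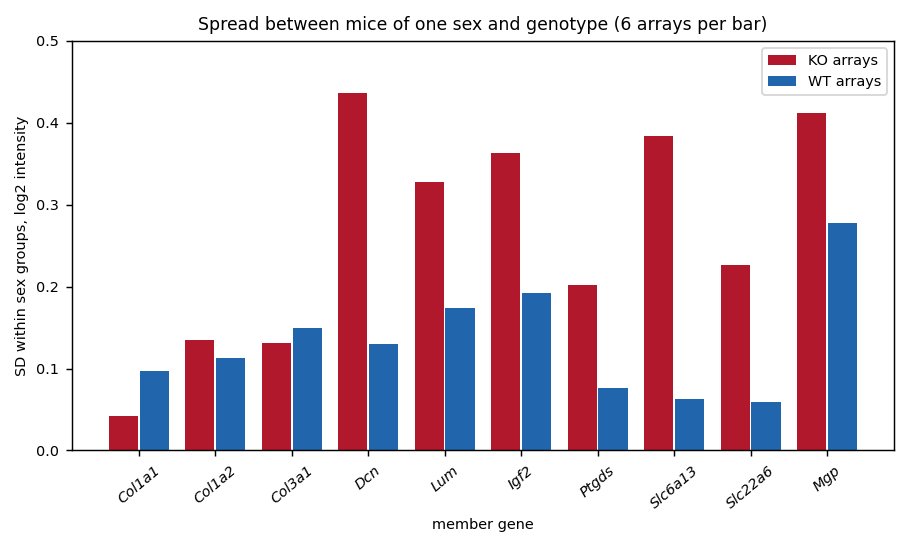
SD of log2 intensity between mice of one sex and genotype (vertical axis, from 0), pooled over the sexes, for KO (red) and WT (blue) arrays, 6 arrays for each bar. Slc6a13 shows 0.38 in KO and 0.06 in WT, while Col1a1 shows 0.04 in KO and 0.10 in WT.

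Averaged over a list of other leptomeningeal genes beside the members, the same arrays were high and low. The mean of the 35 measured genes was 0.28 above the average of all arrays in KO_female replicate 2 and 0.22 above it in KO_male replicate 2, and lay at -0.24 in KO_female replicate 3. Slc13a4, a sulfate transporter, was 8.35, 8.89 and 7.87 in KO_female and 8.21, 9.05 and 8.24 in KO_male, against 8.38, 8.79 and 8.57 in WT_female and 8.90, 8.45 and 8.60 in WT_male. Slc22a8, the organic anion transporter OAT3, was 8.92 in KO_female replicate 2, 8.83 in KO_male replicate 2 and 8.07 in KO_female replicate 3, and lay between 8.35 and 8.65 in the other 9 arrays. Foxc1, a transcription factor that meningeal development needs, was highest in KO_female replicate 2, at 7.27, and lowest in KO_female replicate 3, at 6.55. In KO_male replicate 2 Foxc1 was 6.85, inside the range of the WT arrays. Not every listed gene followed these arrays. Tbx18 was 6.09 in KO_male replicate 2, and Slc22a2 was highest in KO_male replicate 3, at 5.51. Both KO replicates numbered 2 were the highest 2 arrays for 14 of these 35 genes, against 1.92% of all genes. KO_female replicate 3 was the lowest for 17 of them, against 11.3% of all genes. These arrays were picked from the values of the members. Between genotypes 0 of the 35 passed the limma test and 3 had an unadjusted p under 0.05, against 9.26% of all genes. These were the chemokine gene Cxcl12 (0.22, adjusted p = 0.454), Emp1 (-0.16, adjusted p = 0.462) and Pdgfrl (0.14, adjusted p = 0.521).

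Genes around each role were read in the same way, and 0 passed the limma test between genotypes in any of these 8 lists. Their counts at an unadjusted p under 0.05 stand beside a share of 9.26% over all genes. Of 19 other collagens and fibre proteins 5 were positive and 14 negative, with a median of -0.05 and 2 at an unadjusted p under 0.05. Col8a2, a network collagen, differed by -0.35 (SE 0.08; adjusted p = 0.229), and Col5a2, a chain of the type V collagen that nucleates type I fibrils, by -0.18 (SE 0.04; adjusted p = 0.264). Col5a2 lay between 6.36 and 6.49 in the KO arrays, against 6.50 to 6.66 in the WT arrays, without overlap. Sparc, a collagen-binding matrix protein, differed by -0.14 (adjusted p = 0.553). Of 24 genes of collagen processing 9 were positive and 15 negative (median -0.03, 2 at an unadjusted p under 0.05), with the matrix proteases Mmp14 at -0.12 and Mmp2 at -0.11 and the crosslinking enzyme Loxl4 at 0.11 (adjusted p from 0.509 to 0.548). The 12 other small leucine-rich proteoglycans had 6 positive and 6 negative (median 0.02, 0 at an unadjusted p under 0.05), with Fmod at 0.16, Epyc at 0.12 and Kera at -0.11 (adjusted p from 0.605 to 0.637).

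Of 16 genes of the insulin-like growth factor axis 10 were positive (median 0.04, 2 at an unadjusted p under 0.05). The binding protein Igfbp5 differed by 0.18, the growth factor Igf1 by 0.13 and Igfbp7 by 0.15, with adjusted p from 0.467 to 0.543. Among 16 genes of prostaglandin synthesis and reception 10 were positive (median 0.01, 3 at an unadjusted p under 0.05). Ptges2, which makes prostaglandin E, had a difference of 0.255 (SE 0.05; adjusted p = 0.229), at 7.63 to 7.91 in KO arrays, against 7.33 to 7.59 in WT arrays. Slco2a1, the prostaglandin transporter, differed by 0.21 (SE 0.05; adjusted p = 0.248), at 8.91 to 9.11 in KO arrays, against 8.69 to 8.90 in WT arrays. The receptor gene Ptger2 differed by -0.17 (adjusted p = 0.539).

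Of 10 related GABA, amino acid and organic ion transporters 3 were positive (median -0.02, 1 at an unadjusted p under 0.05). The astrocyte GABA transporter Slc6a11 differed by -0.26 (adjusted p = 0.526), the creatine transporter Slc6a8 by -0.10 (adjusted p = 0.583) and the betaine transporter Slc6a12 by 0.10 (adjusted p = 0.693). Of 8 vitamin K and calcification genes 4 were positive (median 0.01, 0 at an unadjusted p under 0.05), with Vkorc1 at 0.11, Bglap at 0.14 and Ggcx at 0.06 (adjusted p from 0.575 to 0.705). Of 18 genes of TGF-beta signalling, a pathway that induces collagen genes, 8 were positive (median -0.02, 4 at an unadjusted p under 0.05). Ltbp3, which binds latent TGF-beta, differed by -0.15, the receptor gene Tgfbr1 by -0.15 and Ccn1 by -0.24, with adjusted p from 0.351 to 0.429.

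The genes most like the average of the 10 members were sought among 11090 genes above the median brightness, by Pearson r over 12 arrays with each value centred on its group. The members themselves had r from 0.47 for Col3a1 to 0.94 for Mgp with that average. Each member is part of the average, which raises its r, so these values cannot be set beside those of other genes. Outside the members the closest were Tmtc1 and Cdh5 (r = 0.96 each), Fbln1 and Klf5 (0.95), Aebp1, Emp3, Serping1 and Notch2 (0.94), Rbp4 (0.93), Arhgap42 and Antxr1 (0.91) and Atg2a (0.90). Fbln1 and Serping1 are in the list of other leptomeningeal genes, and Cdh5, which encodes VE-cadherin, is in the list of endothelial markers. Serping1, the gene of the complement C1 inhibitor, was highest in KO_male replicate 2, at 9.25, then in KO_female replicate 2, and lay between 8.34 and 8.93 in the other arrays. These r values were picked as the highest of many and carry no test.

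Levels of the marker lists of neighbouring tissues were also set out by array. The 13 measured choroid plexus markers, averaged, were highest in WT_male replicate 1, at 0.95, and WT_female replicate 2, at 0.78, and lowest in KO_female replicate 1, at -0.67. Next came KO_female replicate 2, at 0.52, and KO_male replicate 2, at 0.32, while the other 4 KO arrays lay between -0.67 and -0.34. Ttr, the transthyretin gene of the choroid plexus, was 7.59, 13.11 and 10.80 in KO_female and 9.40, 12.87 and 10.06 in KO_male, against 8.88, 13.32 and 12.60 in WT_female and 13.33, 11.51 and 11.13 in WT_male. In WT_male replicate 1 and WT_female replicate 2, the arrays highest for choroid plexus, Slc6a13 was 8.26 and 8.29, where its WT median was 8.30. In the same arrays Igf2 was 8.58 and 8.41 (WT median 8.38), Dcn 9.32 and 9.20 (9.17), and Mgp 9.23 and 9.32 (9.14). Lum was 5.60 and 5.80 (WT median 5.61), Ptgds 12.91 and 12.78 (12.85), and Slc22a6 7.53 and 7.43 (7.50). In KO_female replicate 2 and KO_male replicate 2 Slc6a13 was 8.58 and 8.88 and Igf2 8.80 and 8.52. Dcn was 9.42 and 9.91 there, and Mgp 9.85 and 9.67. Lum was 6.05 and 5.93, Ptgds 12.97 and 13.07, and Slc22a6 7.76 and 7.61. Of the 10 correlations of a member with the choroid plexus mean, 0 passed (permutation test, adjusted over 10). The closest was Igf2 (r = 0.73, p = 0.00803, adjusted p = 0.0803; rho = 0.71, p = 0.013, adjusted p = 0.121), with r = 0.76 without WT_female replicate 2 and WT_male replicate 1. The 7 members other than collagens had r from 0.34 to 0.73, and from 0.57 to 0.76 without those arrays. The part of choroid plexus in the variation of these genes was not tested. The KO minus WT difference was negative for all 13 choroid plexus markers (median -0.26). Of these, 0 passed the limma test and 2 had an unadjusted p under 0.05, against 9.26% of all genes. Slco1a5 differed by -0.26 (adjusted p = 0.517), Folr1 by -0.36 (adjusted p = 0.538) and Otx2 by -0.28 (adjusted p = 0.581).

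The 10 endothelial markers averaged 0.14 above the mean in KO_female replicate 2 and 0.10 above it in KO_male replicate 2, the highest of the 12 arrays, and -0.14 in KO_male replicate 3, the lowest. Cdh5 was 8.78 and 8.57 in those high arrays and at most 8.47 in the others, while Cldn5 was 7.81 and 7.59 there and up to 7.87 elsewhere. Between genotypes 6 of 10 endothelial markers were positive (median 0.02, 0 past the threshold), with Cdh5 at 0.16, Slco1c1 at -0.18 and Flt1 at 0.07 (adjusted p from 0.577 to 0.750). The 10 markers of pericytes and smooth muscle were at 0.19 in KO_female replicate 2 and -0.05 in KO_male replicate 2. The 9 oligodendrocyte markers were at -0.30 in KO_female replicate 2 and -0.23 in KO_male replicate 2, and between -0.27 and 0.23 in the other arrays. The part of these cell types in the variation of the 7 genes was not tested. Border macrophage, melanocyte, ependymal, and bone and muscle markers had mean levels of 6.08 to 6.20 with 0 past the threshold.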

How the data were processed

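Total RNA of 12 mouse cerebella was measured on whole-transcript arrays. Per the labels, the authors used Affymetrix Expression Console for RMA over core exons, and the deposited intensity values are on a linear scale with array medians of 96.5 to 98.7. The submitters' processing notes add Transcriptome Analysis Console 3.0, and no genome build is named in what was used here. The tests had been planned for log2 values, and each intensity was therefore converted to log2, with no pseudocount, filter or further scaling. Of 41345 rows, 23521 had 1 symbol in GEO's platform annotation, 1814 several and 16010 none. The brightest row for each symbol was kept, for 22180 genes, of which 21991 matched RefSeq by gene ID. Col1a2 had a further, dim row.

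limma 3.58.1 in R 4.3.3 fitted 4 group means, and all 12 arrays contributed to 1 estimate of the spread. Tests were two-sided, with p-values adjusted over all genes by the Benjamini-Hochberg method and a threshold of 0.05. Every adjusted p of a genotype or sex difference comes from limma. The fit was tested on simulated data. Permutation tests used numpy 2.4.6. The number of arrays limits the precision.

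The members and lists were chosen with earlier results of these data known, and lists are described by counts and medians. Named by rule were all members, in each list the 3 genes of smallest p between genotypes and any gene past the threshold, and the 12 genes most like the members' average, or 3 for a single member. Other genes were named after their values were seen. For marker lists other than choroid plexus, oligodendrocytes and endothelium, only summaries are given. The alternatives were other scalings, an intensity trend, array weights, a brightness filter, the mean of rows, a choroid plexus covariate and leaving out arrays.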

Additional observations from a re-analysis of the deposited data

Results flagged for a closer look

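Mgp in WT_male replicate 2, at 8.56, lay below the other 5 WT arrays, of which the nearest was 9.04. The gap was 0.633 of the range of the 6 WT arrays, where Dixon's critical value is 0.625. The 6 KO and the 6 WT arrays of each member were examined, 20 sets in all, and this was the only set in which an array lay so far out. Chance alone gives such a result in about 1 of 20 sets.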

How the results depend on the processing

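The count of members past the threshold was 0 in all 5 contrasts under each of the 20 alternatives run, with a smallest adjusted p of 0.44 over both sexes. The filter on brightness left out Col1a2, Col3a1 and Lum. The alternative without KO_male and KO_female replicate 2 together, and the leaving out of single arrays for pairs, were chosen after seeing the data. Without both arrays the differences turned negative, to -0.225 for Dcn, -0.1467 for Lum, -0.1647 for Slc6a13, -0.0652 for Slc22a6, -0.0046 for Flt1 and, in females, -0.1192 for Mgp. Over both sexes they stayed negative for Igf2 (-0.2516), Col1a2 (-0.1719), Col3a1 (-0.145) and Ptgds (-0.1321). Only Col1a1 (0.0445) and Mgp (0.0153) stayed positive, so the mix of 6 positive and 4 negative differences over all arrays depended on these arrays. Leaving out single arrays gave -0.1258 to 0.10 for Dcn, -0.071 to 0.1015 for Lum, -0.1813 to 0.0173 for Igf2, -0.085 to 0.0251 for Ptgds, -0.0796 to 0.1328 for Slc6a13 and -0.0487 to 0.0931 for Slc22a6. It gave -0.1192 to 0.3598 for Mgp in females, -0.043 to 0.1966 for Mgp in females minus males and -0.3877 to 0.0072 for Slc6a13 by sex and genotype. With the choroid plexus covariate Igf2 was 0.0719 and Ptgds 0.0064, with quantile normalization Ptgds was 0.0008, and over the mean of its rows Col1a2 was -0.0243 over both sexes and 0.0292 in males. The cause was not tested.

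Over all genes 5 passed between genotypes, against 18 with an intensity trend, 14 above the median brightness, 3 with the covariate, 2 without both arrays and 3 to 8 without single arrays. In males 5 passed, against 2 without both arrays and 2 to 4 without single arrays. In females 5 passed, against 26 with the trend, 16 above the median brightness and 3 to 7 without single arrays. The test by sex and genotype called 0 genes by limma, and 1070 at an unadjusted p under 0.05, against 2 with the trend, 2 above the median brightness and 0 to 1 without single arrays. Between the sexes 8 passed, against 15 with the trend and 13 above the median brightness. Of 45 pairs 15 passed, against 19 centred on groups, 0 without the farthest arrays, 0 without both KO arrays numbered 2 and 0 to 14 without single arrays. Mal passed with the trend (adjusted p = 0.0189), above the median brightness (0.0331) and without WT_male replicate 1 (0.0309). No paired analysis was possible because the labels give the arrays no replicate numbers, and the numbers here follow record order.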

Other observations

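Single members also had close companions among the 11090 brighter genes, by r over 12 arrays centred on groups. Each companion was picked as one of the highest of all these genes, and its r carries no test. For Slc22a6 the closest were Atp13a5, Alcam and Slc22a8 (r = 0.94 each), the last of them another organic anion transporter. For Dcn they were Fam185a (0.97), Nbl1 (0.96) and the leucine-rich proteoglycan gene Prelp (0.96), which was 10.49 in KO_male replicate 2 and 9.41 to 9.95 in the other arrays. For Slc6a13 they were Rasa2 (0.97), the fibronectin gene Fn1 (0.97) and Cdc42ep1 (0.95), and for Ptgds Arhgap33 (0.95), Slc13a3 (0.93) and Arhgap42 (0.93). For Igf2 they were Cdh5 (0.96), Arhgap42 (0.95) and Rbp4 (0.93), for Lum Zfyve27, Fxyd5 (0.97 each) and Fzd1 (0.945), and for Mgp Nr2f1 (0.95), Bcam and Thbs1 (0.94 each). The collagens had other companions, Zcchc3 (0.94), Ube3b and Usp21 (0.90 each) for Col1a1, Entpd6 (0.96), Agfg2 (0.945) and Cd302 (0.94) for Col1a2, and Map1s (0.95), Lrrc4b (0.86) and Cd164l2 (0.84) for Col3a1. No companion of a collagen was in any list used here, but listed genes below the median brightness were not searched.

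The further row of Col1a2, not used above, was dim. It was 4.90, 4.83 and 4.99 in KO_female and 4.70, 4.90 and 4.83 in KO_male, against 4.99, 5.01 and 4.81 in WT_female and 4.49, 4.68 and 4.79 in WT_male.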
